A study of Homo sapiens with 2 samples.

Results

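The mitochondrial ribosomal proteins, the products of the MRPL and MRPS genes, were examined in HT-29 human colon cancer cells grown either as a monolayer or as spheroids. A gene was a member when its symbol was MRPL or MRPS followed by a number and at most 1 further letter, and pseudogenes were left out. In all, 77 RefSeq genes fit this rule, and 75 of them had a probe set assigned to no other gene, out of 19775 such genes on the array. The monolayer cells were kept on tissue culture plates in DMEM/F-12 with 10% fetal bovine serum. The spheroids grew from those cells on low adhesion plates in stem cell medium, which holds B27, epidermal growth factor and fibroblast growth factor, and were collected on day 5. Both cultures received the same antibiotic and antimycotic, and both are the same cell line, which comes from 1 tumor. Medium and form of growth changed together, so that their parts in any difference cannot be told apart. The methods speak of duplicate arrays, but the table analysed here holds 1 array per condition, so no spread between replicates can be given, no difference can be set against one, and no test was made.

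The mitochondrial ribosome is the machine inside mitochondria that makes the few membrane proteins still encoded by mitochondrial DNA, all of them subunits of the respiratory chain and ATP synthase. Its RNAs are transcribed in the organelle, while all of its proteins are encoded in the nucleus, made in the cytosol and imported. Some of these proteins descend from bacterial ribosomal proteins and others are particular to mitochondria. Cells that respire, those of the colon epithelium among them, depend on it for the core of the respiratory chain.

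RNA was measured on Affymetrix U133 Plus 2.0 arrays, in which a probe set is a group of short probes near the 3' end of a transcript and its MAS5 signal is a linear intensity. Of 12 epithelial markers, EPCAM, KRT8, KRT18, KRT19 and CDH1 had signals of 4544 or more on both arrays, whereas the intestinal genes CDX1 and LGALS4 were under the floor of 62.7 on both, the floor being the median of all signals. VIL1, CDX2, CEACAM5 and TFF3 passed the floor on 1 array only, and KRT20 was at 99.6 in the monolayer and 218 in spheroids. In the list of markers of other cells, 4 of 10 genes passed the floor in at least 1 condition, and PTPRC, CD14, CD3E, VWF, COL3A1 and DCN were under it on both. COL1A1 was at 1370 in the monolayer and 1972 in spheroids, and VIM at 463 and 202. As a sign of RNA integrity, the 3' to 5' signal ratio of GAPDH was 1.05 in the monolayer and 1.07 in spheroids, and that of ACTB 4.07 and 3.65. All 18 probe sets of the hybridisation spike-ins, bacterial RNAs added during the assay, were lower on the spheroid array, by a mean of -0.25 on the log2 scale, and the part of this in the differences below was not tested.

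The members were, on balance, slightly lower in spheroids. Their median log2 difference in signal, spheroid minus monolayer, was -0.21, or 1.15-fold lower, beside -0.05 for the 13183 genes that passed the floor in at least 1 condition. The quartiles of the members were -0.38 and -0.00, and those of all genes -0.33 and 0.25. Of the 75 members, 57 (76%) were lower by any amount, beside 54.8% of all genes. In bulk RNA of this kind, fewer cells that use a gene and less RNA per cell cannot be told apart. When the signals were scaled to the spike-ins, the member median became 0.04 and that of all genes 0.18, so the sign of the member median depended on this choice. Such scaling raises the log2 difference of every member by the same amount. Then 32 of the 75 members were below 0, beside 32.8% of all genes. Relative to the median of all genes, the member median was -0.15 as reported and -0.13 after that scaling.

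**Figure D1:**
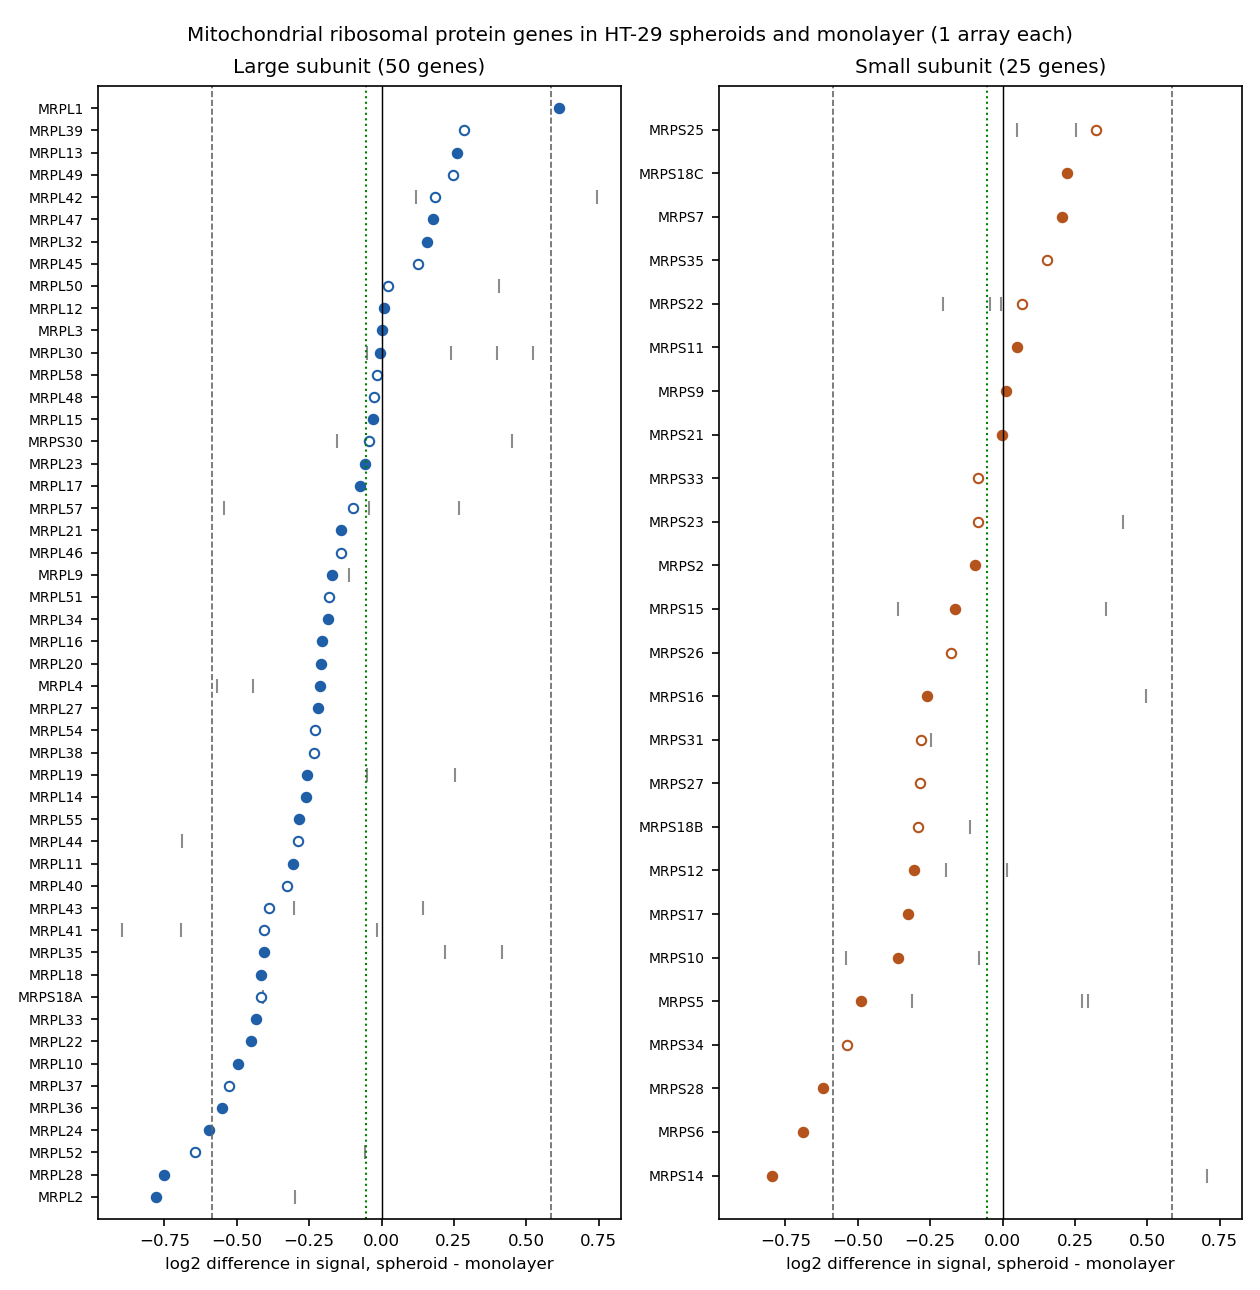
Log2 difference in MAS5 signal (spheroid minus monolayer) for the 50 members of the large and the 25 of the small subunit, sorted within each subunit. Filled circles are members with a bacterial counterpart and open circles members particular to mitochondria, grey ticks are further probe sets of the gene that passed the floor in both conditions, dashed lines mark 1.5-fold and the green dotted line the median of all genes. The circles run from -0.80 for MRPS14 to 0.61 for MRPL1. Of the 75 circles 57 lie left of 0, beside 54.8% of all genes. After scaling to the spike-ins 32 lie left of 0, beside 32.8% of all genes.

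The differences of single members were small. No member differed 2-fold, the threshold of the study's methods. Among all genes, dim ones included, 2.53% were higher in spheroids by that much and 3.08% were lower. At 1.5-fold, 1 member (1.33%) was higher, beside 9.53% of all genes, and 7 members (9.33%) were lower, beside 11.6%. After scaling to the spike-ins no member was that much lower, beside 5.61% of all genes. The share of all genes beside which the 9.33% is read depends on how dim the genes are, and it was 7.30% with the floor at the 75th percentile. All 75 members passed the floor in both conditions, with signals of 619 to 18783 in the monolayer and 526 to 18817 in spheroids. Of the 6876 genes with a mean signal at least as high as that of the dimmest member, 56.2% were lower in spheroids. Their median was -0.06. Past the 1.5-fold line lay 7.24% on the lower side and 7.00% on the higher side. Only 93 of these 6876 genes rose 2-fold or more, and 66 fell by as much. Such changes were thus rare among bright genes, and their absence from the 75 members is not read as a trait of the family.

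The 7 members that were at least 1.5-fold lower came from both subunits. MRPS14, a protein of the head of the small subunit, had a signal of 3029 in the monolayer and 1744 in spheroids and a log2 difference of -0.80, although a second, dim probe set of this gene had the opposite sign. MRPS6, a protein of the platform of the small subunit, was at 3819 and 2367, a log2 difference of -0.69. MRPS28, the counterpart of bacterial S1, was at 9237 and 6011, a log2 difference of -0.62. The other 4 belong to the large subunit, and their spheroid signals were 58.3% to 66.2% of the monolayer signals. MRPL2, which lies close to the catalytic centre where peptide bonds are made, was at 1297 and 756, a log2 difference of -0.78. MRPL28 was at 1453 and 864, a log2 difference of -0.75. MRPL52, a protein of the central protuberance, was at 3674 and 2349, a log2 difference of -0.65. MRPL24, which sits at the exit of the peptide tunnel, was the closest to the threshold on its inner side, with 2350 and 1555 and a 1.51-fold lower signal. MRPL36, with 8049 and 5491, lay just outside at 1.47-fold lower.

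The next members in order were also spread over both subunits. MRPS34 was at 1835 and 1263, a log2 difference of -0.54. MRPL37 was at 3113 and 2163, a log2 difference of -0.53. MRPL10, the base of the stalk that calls in translation factors, was at 5451 and 3866, a log2 difference of -0.50. MRPS5, a protein of the small subunit whose bacterial counterpart bears on decoding accuracy, was at 3583 and 2551, a log2 difference of -0.49. Further probe sets of MRPS5 ran from -0.31 to 0.29. MRPS34, MRPL37, MRPL10 and MRPS5, together with the 7 above and MRPL36, are the 12 lowest members.

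MRPL1 was the single member at least 1.5-fold higher in spheroids. It builds the mobile arm through which spent tRNAs leave the ribosome, and its signal of 2604 in the monolayer and 3985 in spheroids was 1.53-fold higher, or 0.61 as a log2 difference. The next highest, MRPS25 of the small subunit, was at 832 and 1040, a log2 difference of 0.32. MRPL39 was at 2777 and 3383, a log2 difference of 0.28. With 1 value per gene, a gap separated MRPL1 from the rest, since MRPS25, the next, was 1.25-fold higher. MRPL1 had only 1 probe set, and further probe sets of other members lay above it, at 0.74 for MRPL42 and 0.71 for MRPS14. The remaining 9 of the 12 highest had log2 differences of 0.26 for MRPL13, 0.25 for MRPL49, 0.22 for MRPS18C, 0.21 for MRPS7, 0.18 for MRPL42, 0.18 for MRPL47, 0.16 for MRPL32, 0.15 for MRPS35 and 0.13 for MRPL45. Among these, MRPL45 anchors the ribosome to the inner membrane and MRPL32 is matured by the AFG3L2 protease before it joins the large subunit.

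**Figure D2:**
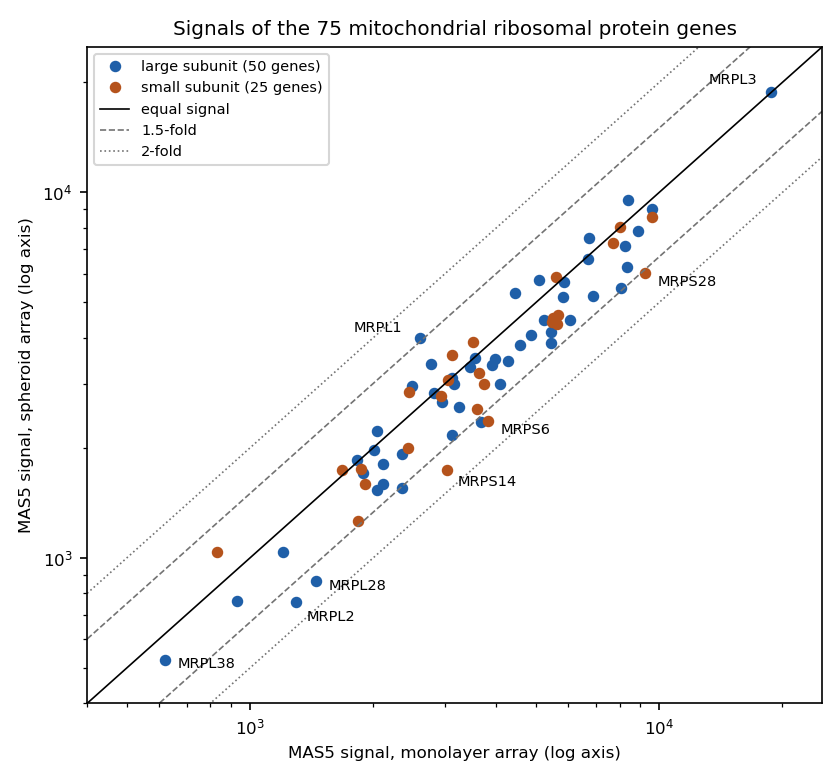
MAS5 signal of each of the 75 members on the monolayer array (horizontal, log axis) and on the spheroid array (vertical, log axis), 1 array each. The solid line marks equal signal, the dashed lines 1.5-fold and the dotted lines 2-fold. All points lie between the dotted lines, MRPL1 alone lies above the upper dashed line, and MRPL3 is almost on the line of equal signal.

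The members that gave the highest signals differed little. Signals of different probe sets depend on their probes and are not levels that can be set against each other, so each is compared only between the arrays. MRPL3, of the large subunit, was at 18783 and 18817, a log2 difference of 0.00. MRPL57 was at 9612 and 8984, a log2 difference of -0.10, and its other probe sets ran from -0.54 to 0.27. MRPS15 was at 9588 and 8565, a log2 difference of -0.16. MRPL47, MRPL51 and MRPS21 completed the 6 highest, with log2 differences of 0.18, -0.18 and -0.00. When the members were split into 3 equal classes by mean signal, the median log2 difference was -0.17 in the brightest, -0.18 in the middle and -0.23 in the dimmest. Over the 75 members, Spearman's rho between the log2 difference and the mean log2 signal was 0.12, a description over probe sets that share the same 2 arrays.

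The promoters of the highest and the lowest member and of 3 members rich in motifs are shown, so that the letters upstream of genes with opposite signs can be read side by side. Nuclear genes for mitochondrial proteins are known for promoters without a TATA box that bind NRF1, ETS factors such as GABP, and YY1. Each sequence runs 5' to 3' on the strand of the gene, from 250 bases before to 50 bases after the start in RefSeq on GRCh38.p14, with motif letters of NRF1, ETS, YY1 or the E-box on either strand in capitals. MRPL52 lies at chr14:22829637-22829936 on the plus strand, MRPL22 at chr5:154940823-154941122 on the plus strand, MRPS14 at chr1:175023376-175023675 on the minus strand, MRPS18C at chr4:83455808-83456107 on the plus strand and MRPL1 at chr4:77862580-77862879 on the plus strand. Each window holds the promoter and the first bases of the first exon.
MRPL52: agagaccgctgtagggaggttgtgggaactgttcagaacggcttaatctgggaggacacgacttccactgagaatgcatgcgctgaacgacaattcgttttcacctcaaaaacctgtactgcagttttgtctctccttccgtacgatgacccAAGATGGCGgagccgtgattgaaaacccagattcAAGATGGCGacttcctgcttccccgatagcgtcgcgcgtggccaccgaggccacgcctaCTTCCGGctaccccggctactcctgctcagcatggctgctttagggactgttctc
MRPL22: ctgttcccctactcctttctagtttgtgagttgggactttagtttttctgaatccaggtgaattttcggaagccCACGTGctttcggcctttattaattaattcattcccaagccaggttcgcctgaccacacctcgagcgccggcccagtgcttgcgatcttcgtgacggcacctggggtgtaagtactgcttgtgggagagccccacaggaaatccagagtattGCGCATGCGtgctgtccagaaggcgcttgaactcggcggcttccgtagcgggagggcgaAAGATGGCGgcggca
MRPS14: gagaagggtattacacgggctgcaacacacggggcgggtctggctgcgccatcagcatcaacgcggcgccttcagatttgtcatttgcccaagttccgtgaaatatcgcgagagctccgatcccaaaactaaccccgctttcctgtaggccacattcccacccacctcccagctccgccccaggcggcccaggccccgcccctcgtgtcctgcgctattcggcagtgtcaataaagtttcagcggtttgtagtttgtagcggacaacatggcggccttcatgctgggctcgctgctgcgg
MRPS18C: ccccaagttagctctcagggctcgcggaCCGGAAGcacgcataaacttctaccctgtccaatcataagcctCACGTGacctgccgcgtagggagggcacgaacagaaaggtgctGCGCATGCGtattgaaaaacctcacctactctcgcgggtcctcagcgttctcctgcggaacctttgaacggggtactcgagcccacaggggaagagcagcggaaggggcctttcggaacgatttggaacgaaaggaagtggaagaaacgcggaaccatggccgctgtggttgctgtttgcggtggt
MRPL1: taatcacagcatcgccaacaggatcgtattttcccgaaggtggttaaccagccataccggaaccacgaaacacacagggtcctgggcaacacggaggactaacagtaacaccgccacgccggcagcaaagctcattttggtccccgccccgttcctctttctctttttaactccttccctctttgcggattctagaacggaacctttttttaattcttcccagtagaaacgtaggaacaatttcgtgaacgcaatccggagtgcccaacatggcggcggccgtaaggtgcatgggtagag

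Neither MRPS14, the lowest member, nor MRPL1, the highest, held any of the motifs in its window in the exact letters searched. Both windows hold AACATGGCG, which differs from the YY1 motif AAGATGGCG in a single letter. MRPL1 also holds CCGGAAC, a single letter off the ETS motif CCGGAAG. Such near matches were not counted. In MRPL52, 2 YY1 motifs began at positions -98 and -64 from the start and an ETS motif, on the other strand, at -5. MRPL22 held an E-box, an NRF1 motif and, 35 bases after the start, a YY1 motif. MRPS18C held an ETS motif at position -222 from the start, an E-box at -179 and an NRF1 motif at -136.

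Over all members the ETS motif was the most frequent. RefSeq windows were found for 67 members, 83 windows in all since 11 members have several starts, and each motif was searched on both strands. The ETS motif CCGGAAG was in 38.6% of member windows, beside 10.3% of the 35116 windows of all genes and 16.02% of the 15451 windows of genes past the floor. The YY1 motif AAGATGGCG was in 14.5%, beside 1.75% and 3.18%. The NRF1 motif GCGCATGCG was in 3.61%, beside 1.92% and 2.96%. The E-box CACGTG, the motif that MYC binds, was in 10.8%, beside 7.26% and 9.21%. The letters TATAAA were in 3.61%, beside 11.5% and 6.61%. None of these motifs contains another. Members with an ETS motif in a window (29) had a median log2 difference of -0.22, and those without (38) of -0.17. For the 12 members with a YY1 motif the median was -0.26, and for the 55 without -0.18. A match of letters does not show that a factor binds there.

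The large subunit, which joins amino acids, had 50 members when MRPS18A and MRPS30, which sit in it in spite of their names, were counted there, and its median log2 difference was -0.21, with 39 lower and 4 at least 1.5-fold lower. The small subunit, which reads the mRNA, had 25 members with a median of -0.18, with 18 lower and 3 at least 1.5-fold lower. The difference between these medians was -0.03. The 45 members with a bacterial counterpart had a median of -0.21 and held 6 of the 7 that were at least 1.5-fold lower, and the 30 particular to mitochondria had a median of -0.16 and held MRPL52. Within the small subunit the medians were -0.26 for the 15 with a bacterial counterpart and -0.13 for the 10 without, and within the large subunit -0.21 for 30 and -0.16 for 20. After scaling to the spike-ins the medians of both subunits and of both classes of origin turned to between 0.03 and 0.09. No order of these classes is read from 1 array per condition.

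The central protuberance is the upper knob of the large subunit, built around a tRNA in human mitochondria. All 7 of its members were lower, beside 54.8% of all genes, with a median of -0.23. MRPL52 was the lowest, as given above. MRPL18, which carries 5S rRNA in bacterial ribosomes, was at 8352 and 6258, a log2 difference of -0.42. MRPL40 was at 3234 and 2581, a log2 difference of -0.33. The other 4 were closer to 0, with log2 differences of -0.23 for MRPL38, -0.14 for MRPL46, -0.03 for MRPL48 and -0.02 for MRPL58, a peptidyl-tRNA hydrolase built into the ribosome. The last 2 of these were higher than the median of all genes. After scaling to the spike-ins these 4 were above 0, with 0.01 for MRPL38, 0.11 for MRPL46, 0.22 for MRPL48 and 0.23 for MRPL58. MRPL52, MRPL18 and MRPL40 stayed lower.

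The 9 members at the exit of the peptide tunnel had a median of -0.06, with 5 lower, close to the median of all genes. MRPL22 was at 4091 and 2994, a log2 difference of -0.45, and MRPL24 was lower still, as given above. MRPL44, which has a fold related to ribonuclease III, was at 2349 and 1925, a log2 difference of -0.29. MRPL17 and MRPL23 were at -0.07 and -0.06. MRPL50 was at 0.02, while MRPL45, MRPL47 and MRPL39 were on the higher side, as given above.

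Of the stalk, which binds translation factors, 4 of 5 listed proteins had a value, with a median of -0.27. MRPL10 was followed by MRPL11, at 4275 and 3459, a log2 difference of -0.31. MRPL54 was at 2120 and 1808, a log2 difference of -0.23. MRPL12, which forms the flexible arm of the stalk and also binds the mitochondrial RNA polymerase, was at 2814 and 2833, a log2 difference of 0.01. The fifth, MRPL53, had no probe set of its own, and one that it shares with CCDC142 was at 3075 and 2483, a log2 difference of -0.31. MRPS24, the other member without a value, shares a probe set with the readthrough gene URGCP-MRPS24, at 9803 and 7435 and a log2 difference of -0.40.

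The 3 MRPS18 genes, relatives of bacterial S18, differed in sign. MRPS18A, in the large subunit, was at 2049 and 1535, a log2 difference of -0.42, and a second probe set gave -0.41. MRPS18B, in the small subunit, was at 5660 and 4616, a log2 difference of -0.29, and a second probe set gave -0.11. MRPS18C, the closest to bacterial S18 in place, was at 2444 and 2850, a log2 difference of 0.22, and its other 2 probe sets were under the floor on both arrays.

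Probe sets of the same gene gave the only internal measure of spread. They were read on the same arrays, so this spread holds no variation between cultures or between arrays. The members had 140 probe sets, 122 of them past the floor in both conditions, and 26 members had at least 2 such probe sets. These lay all below 0 in 10 members, all above 0 in 3 and on both sides in 13, so 50% were on 1 side, beside 53.6% of the 5506 genes for which this could be counted. The SD between probe sets of a gene was 0.33 over the members and 0.41 over those genes. Over the 122 probe sets the median was -0.13, with 83 lower.

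Of the 13 members with probe sets on both sides of 0, 3 reached over 0.3 in each direction. MRPS14 was the farthest apart, since its second probe set was at 155 in the monolayer and 254 in spheroids, or in log2 terms a difference of 0.71 against -0.80. MRPL35 had 3 probe sets, with log2 differences of -0.41, 0.22 and 0.41 and the brightest the lowest. MRPS15 had log2 differences of -0.16 and -0.36 on its brighter pair and 0.36 on a dim probe set at 84.2 and 108. Other members were of 1 sign throughout. MRPL4 gave -0.21, -0.44 and -0.57, and MRPL42 gave 0.18, 0.12 and 0.74, both named here for their probe sets after the values were seen. MRPL2 gave -0.78 and -0.30, and MRPL52 gave -0.65 and, on a dim probe set at 109 and 105, -0.06.

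Near-identical copies could share signal with some members. RefSeq names pseudogenes for 39 of the 75 members, and their median log2 difference was -0.16, beside -0.22 for the 36 without. The chosen probe sets were of the kind unique to a transcript for 30 members, with a median of -0.23. They could match several transcripts in 42, with a median of -0.19, and partly match other sequences in 3, with a median of -0.18.

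Among the other genes of mitochondrial translation, the differences ran in both directions. The first list held 6 genes, ribosomal proteins without an MRP symbol and the membrane insertase OXA1L. Of these, 5 had a value and a median log2 difference of -0.13, with 4 lower. The lowest was GADD45GIP1 at -0.20, followed by OXA1L at -0.15. DAP3, a GTP-binding protein of the small subunit, was at -0.05, but its probe sets ran from -0.40 to 1.21. PTCD3 was at 0.03, the lowest of its probe sets, which reached 0.70. Of 14 translation factors, 12 had a value, with a median of -0.08 and 7 lower. Beside 11.6% of all genes, 2 of the 12 (16.7%) were at least 1.5-fold lower. These were MTRFR, a rescue factor for stalled ribosomes, at 1949 and 1256, and TACO1, the activator of COX1 translation, at 2613 and 1702, log2 differences of -0.63 and -0.62. The ribosome recycling factor MRRF was the highest at 1137 and 1597, a log2 difference of 0.49, and MTRF1L followed at 0.29, with its other probe sets as low as -0.47. A second probe set of TACO1 gave 0.092.

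The assembly factors and enzymes that modify ribosomal RNA had the same median as the members, -0.21 over 28 of 30 genes, with 20 lower. Of these, 4 (14.3%) were at least 1.5-fold lower and none at least 1.5-fold higher, beside 11.6% and 9.53% of all genes. MTG2, a GTPase of large subunit assembly, was the only one past 2-fold, at 760 and 350, a log2 difference of -1.12, but another of its probe sets gave 0.49. MRM1, which methylates the large ribosomal RNA, was close to the floor at 116 and 66.8, a log2 difference of -0.80. The highest were NSUN4, at 0.39 with another probe set at -0.30, and FASTKD2, at 0.38. NOA1 and TRUB2, at -0.62 and -0.61, are named to complete the 4.

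Genes for transcription and RNA handling in mitochondria had a median of 0.05 over 20 genes, with 9 lower. At least 1.5-fold higher were 5 of them (25%), beside 9.53% of all genes. TFAM, which packs and transcribes mitochondrial DNA, was at 2069 and 3271, a log2 difference of 0.66, and TRMT10C, a subunit of mitochondrial RNase P, at 2703 and 4249, a log2 difference of 0.65. PNPT1, TEFM and FASTKD3, named to complete the count, were at 0.64, 0.60 and 0.59, and another probe set of TEFM gave -0.20. POLRMT, the mitochondrial RNA polymerase itself, was at 1330 and 791, a log2 difference of -0.75, and TBRG4 was at -0.56. Thus the polymerase and TFAM, which work at the same promoters, had differences of opposite sign.

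For 7 mitochondrially encoded genes, whose messages the mitochondrial ribosome translates, the median log2 difference was 0.05, with 2 lower. COX1 was the highest at 40525 and 56103, a log2 difference of 0.47, and ND2 followed at 0.34. COX3 was the lowest at 8010 and 6325, a log2 difference of -0.34, and ND6 was at -0.00. COX2, named for its probe sets, gave 0.11 and -0.04.

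Regulators of mitochondrial biogenesis had a median of -0.03 over 10 of 12 listed genes, with 5 lower. GABPB1, a subunit of the ETS factor GABP, was at 753 and 1205, a log2 difference of 0.68, but another of its probe sets gave -0.52. GABPB2 was at 0.51. MTOR, the kinase that drives growth and protein synthesis, was at 539 and 279, a log2 difference of -0.95, and the coactivator PPARGC1B at 746 and 456, a log2 difference of -0.71. MYC, NRF1, YY1 and GABPA, a further subunit of GABP, are named for their motifs above. They were at -0.66, -0.13, -0.13 and 0.25, and another probe set of GABPA gave 1.10. Probe sets ran from -0.15 to 0.21 for NRF1 and from -0.56 to 0.36 for YY1.

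**Figure D3:**
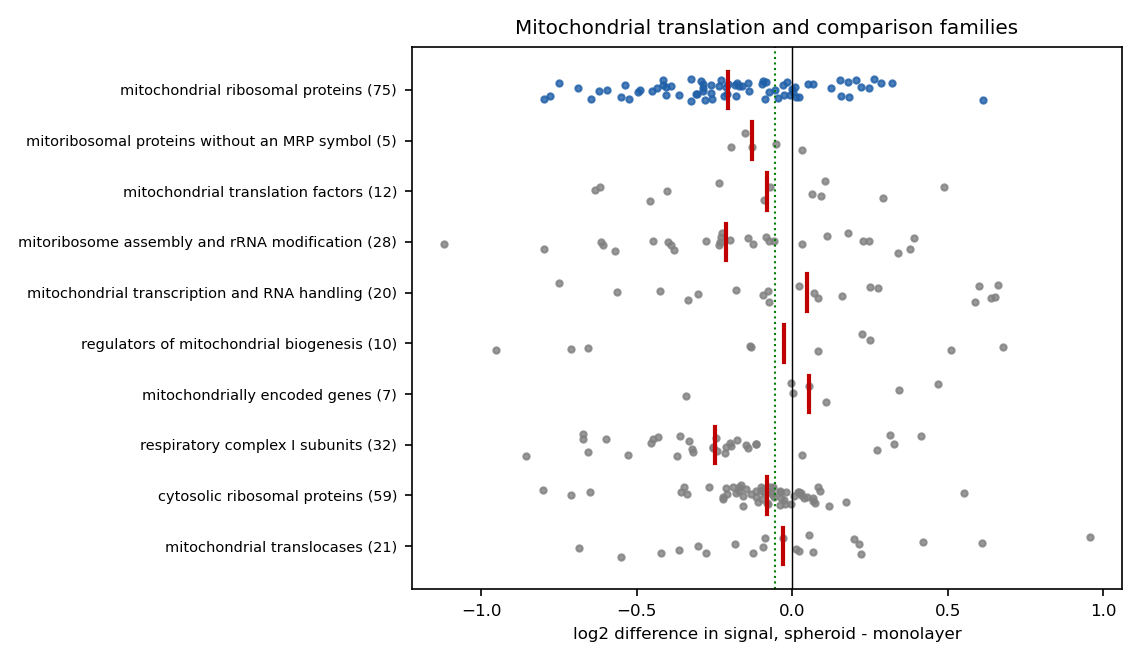
Log2 difference in MAS5 signal (spheroid minus monolayer) of each gene that passed the floor in at least 1 condition, by list, with the number of genes in parentheses. Points are genes, shifted at random in height, red bars are medians, the green dotted line is the median of all genes and the black line marks 0. The medians of the members, the assembly list and complex I lie left of the others, at -0.21, -0.21 and -0.25, and the member median lies at 0.04 when signals are scaled to the spike-ins.

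Other families were set beside the members. The 32 subunits of respiratory complex I, which holds several proteins made by the mitochondrial ribosome, had a median of -0.25. Of these, 84.4% were lower and 5 (15.6%) at least 1.5-fold lower, beside 54.8% and 11.6% of all genes. The cytosolic ribosomal proteins were chosen by symbol, so that the list includes like-named genes such as RPL7L1 and RPS27L. Of this list 59 of 62 had a value, with a median of -0.08 and 74.6% lower. The translocases that import proteins into mitochondria had a median of -0.03 over 21 genes, with 52.4% lower. The median of the members thus lay between those of complex I and of the translocases. These lists share the same 2 arrays, and no difference between them was tested.

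Several members share a promoter region with a gene on the other strand. In 29 members a RefSeq gene on the other strand started within 1000 bases, and MRPL46 and MRPS11 are such a pair with each other. The neighbours of MRPL3, MRPL9, MRPL34, MRPS9 and MRPS34 start downstream of the member's own start, so these pairs overlap. In 18 pairs both genes passed the floor in both conditions. Both were lower in 8 pairs and both higher in 2, while signs were opposite in 8, with the member lower in 5 and higher in 3. The median over the neighbours was -0.12, and Spearman's rho over the 18 pairs was -0.03. The neighbours in this paragraph are named after their values were seen. MRPS34 and EME2 were the farthest apart, with -0.54 for the member and 1.09 for the neighbour. For MRPS2 the value was -0.09 and for its neighbour PIERCE1 -1.04. MRPL49 was at 0.25 and its neighbour FAU, a cytosolic ribosomal protein gene, at -0.17.

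**Figure D4:**
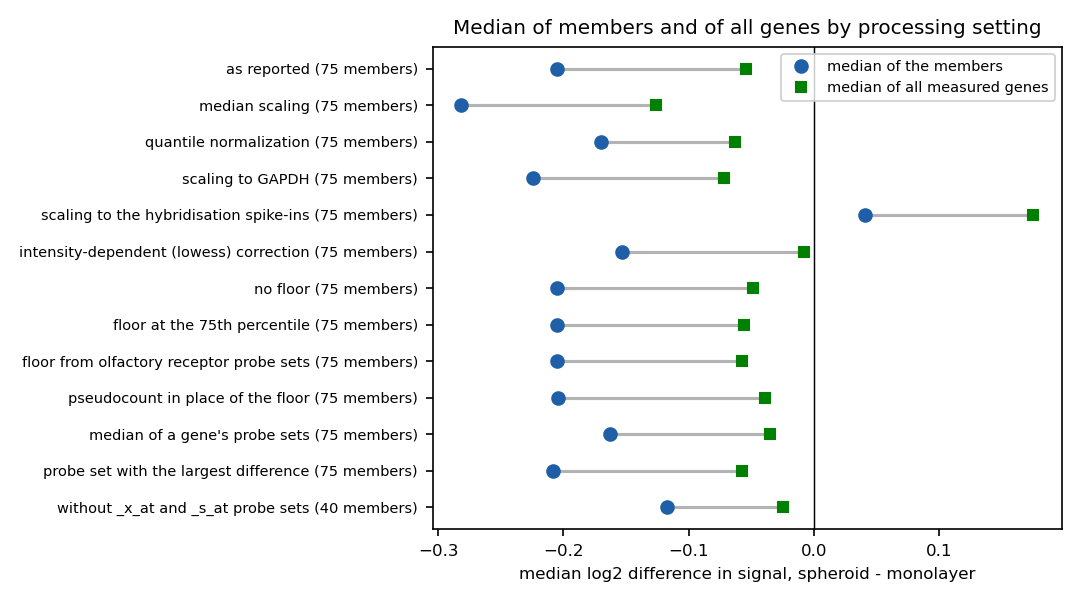
Median log2 difference (spheroid minus monolayer) of the members (blue circles) and of all measured genes (green squares) as reported and under each of 12 other ways to process the signals, with the number of members with a value in parentheses. The circle lies left of the square in every row, by 0.09 to 0.17, and both lie right of 0 only after scaling to the spike-ins.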

How the data were processed

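Total RNA from 1 monolayer and 1 spheroid culture of HT-29 was labeled with a 3' IVT kit and hybridised to Affymetrix U133 Plus 2.0 arrays. The deposited table holds linear intensity values, which the authors made with the MAS5 method in Affymetrix Expression Console, per the submitters' processing notes and the methods; scaling of each array is built into that method and its target was not given in the sources used here. Of 54675 probe sets, 41097 are paired with 1 gene in the platform annotation, 1801 with several and 11777 are not listed; 41043 were matched to a current RefSeq symbol. A floor at the median of all signals (62.7) was set before log2, with a lower signal raised to it. Each gene was given the value of the probe set whose log2 signal averaged highest over both arrays, and genes under the floor on both arrays were left out. With 1 array per condition no test was made, and the number of arrays limits the precision.

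The members and lists were chosen with earlier results of these data known. Named are the 12 highest and 12 lowest members, those past 1.5-fold, the 6 with the highest signal, those whose probe sets reach over 0.3 on both sides of 0, the stalk, tunnel exit, central protuberance and MRPS18 genes, and the 2 highest and 2 lowest of each other list. Mitochondrially encoded genes were found by chromosome, since the symbols in the tables carry no prefix. The steps were tested on simulated data with known differences. Python 3.11.15 with pandas 2.3.3, numpy 2.4.6, scipy 1.17.1 and statsmodels 0.14.6 was used, and matplotlib 3.10.9 for plots. In the 12 alternatives signals were scaled or normalized in other ways, the floor was changed, dropped or replaced by a pseudocount, and probe sets were chosen by other rules.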

Additional observations from a re-analysis of the deposited data

How the results depend on the processing

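Of 168 results over the whole family and its classes under 12 alternatives, 150 stayed close (medians of the same sign within 0.1, counts within 1.5 times). Of 865 values of single members, 842 moved by no more than 0.41, the SD between probe sets of a gene, but 62 took the other sign, 25 of them after scaling to the spike-ins. Much of both counts was fixed in advance, so they are no measure of robustness. Scaling by 1 factor shifts all members alike, by less than 0.41 here, and cannot change differences between classes. The signals used for the members lie above each floor, so the floor settings leave their values as they were. Relative to the median of all genes the member median was between -0.17 and -0.09 in each alternative. Scaling to the spike-ins turned the member median to 0.041 and that of all genes to 0.18. It turned the medians of the large and the small subunit to 0.039 and 0.068. Those of the members with a bacterial counterpart and of those particular to mitochondria became 0.033 and 0.086. Then 0 members were at least 1.5-fold lower and 32 were below 0, beside 5.61% and 32.8% of all genes. Median scaling left 0 members past 1.5-fold on the higher side and 10 on the lower, beside 7.65% and 14.5% of all genes. When the median over probe sets stood for each gene, these counts were 2 and 4, beside 8.69% and 9.97% of all genes. When each gene took its most different probe set, 3 were higher by that much and 9 lower, beside 17.8% and 17.2% of all genes. Of the 3, 1 was at least 2-fold higher, MRPS11 at 1.13. Without probe sets that can match several sequences, 40 members had a value. Of these, 3 were at least 1.5-fold higher and 3 lower, beside 11.3% and 11.9% of all genes. Below 0 were 27, beside 52.1% of all genes, and 15 were above the median of all genes. In that setting the large minus small subunit median was -0.14, the bacterial minus particular median turned to 0.040, and MRPS14 turned to 0.71; fewer genes had a value by construction, and the cause was not tested otherwise. No paired analysis was possible because each condition has 1 array, and for the same reason no replicate could be left out. Differences near the floor of 62.7 are understated.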
